A study of Mus musculus with 22 samples.

Results

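The collagen genes of mouse embryonic fibroblasts (MEFs) were followed through serial passage and through loss of the ribosomal S6 kinases S6K1 and S6K2. Members were all rows of the raw count table whose identifier named a protein-coding mouse gene with a symbol of the form Col, number, a, number. This rule found 44 collagen genes among 55401 identifiers, and it used no measured value. RNA was sequenced from 22 MEF libraries in 2 sets. The S6K1 set held 4 early WT libraries (passage 3), 4 late WT libraries (passage 8) and 3 late *S6K1* KO libraries (passage 8). The S6K1/S6K2 set held 4 early WT libraries (passage 3), 4 late WT libraries (passage 8) and 3 late *S6K1/S6K2* DKO libraries (passage 8). Cells came from mid-gestation embryos after removal of the head and the inner organs. KO and WT embryos of the S6K1 set were littermates from heterozygous crosses. DKO embryos came from parents that lacked *S6K2* and carried 1 intact copy of *S6K1*, whereas their WT controls came from WT mothers of an earlier breeding stage, so that litter and genotype cannot be told apart in that comparison. The comparisons ask how the MEF transcriptome differs between early and late passage, and how late cells without S6K1, or without both kinases, differ from late WT cells.

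Collagens are secreted proteins built from 3 polypeptide chains that wind into a triple helix. Fibrillar collagens (types I, II, III, V, XI, XXIV and XXVII) form or nucleate the banded fibrils of connective tissue. Type IV forms the sheet-like network of basement membranes, and type VI forms beaded filaments around cells. FACIT collagens decorate fibrils, type VII anchors epithelium to the stroma, types VIII and X form short-chain networks, types XV and XVIII (multiplexins) sit at basement membranes, and a small group spans the plasma membrane. Chains are hydroxylated, folded and glycosylated in the endoplasmic reticulum, trimmed outside the cell and then cross-linked. Fibroblasts are the main producers of types I, III, V and VI in most connective tissue.

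The libraries held 10742454 to 17314832 counts (median 14651363.5). Levels are given as CPM, the counts scaled to a common library total with trimmed mean of M values (TMM) factors. *Rps6kb1*, which encodes S6K1, lay at 55.6 to 75.3 CPM in late WT and at 14.2 to 23.0 CPM in KO libraries, and at 64.6 to 87.5 CPM in late WT and 20.4 to 28.3 CPM in DKO libraries. *Rps6kb2*, which encodes S6K2, lay at 11.2 to 16.4 CPM in late WT and at 0.485 to 1.36 CPM in DKO libraries, so that both genes followed the labels. With passage *Rps6kb1* had log2 fold changes of −0.53 ± 0.16 and −0.14 ± 0.13 in the S6K1 and S6K1/S6K2 sets (SE, edgeR adjusted p = 0.0525 and 0.502). *Rps6kb2* had −0.67 ± 0.19, which passed, and −0.49 ± 0.23 (SE, edgeR adjusted p = 0.0386 and 0.163), and 0.31 ± 0.21 in KO (SE, edgeR adjusted p = 0.649). The 10 fibroblast markers summed to 10093 to 16582 CPM across the 22 libraries. The 14 macrophage markers summed to 437 to 1814 CPM in early WT, 5017 to 11587 CPM in late WT, 3312 to 4521 CPM in KO and 790 to 3074 CPM in DKO libraries. Markers of chondrocytes, osteoblasts, endothelium, epithelium, skeletal muscle and Schwann cells summed to at most 177.5 CPM per list in any library. Transcripts of 4 Y-linked genes marked 2 of 4 early WT, 1 of 4 late WT and 3 of 3 KO libraries of the S6K1 set, and 2 of 4 early WT, 3 of 4 late WT and 1 of 3 DKO libraries of the S6K1/S6K2 set. As the samples are bulk cultures, fewer cells of a type and less RNA per cell cannot be told apart in any value below.

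Type I collagen chains had the highest levels of all collagens in each of the 6 groups. To compare genes with each other, CPM was divided by the length of the coding transcript. On this scale *Col1a2* stood at 1948 ± 676 CPM per kb (SD, n = 4) and *Col1a1* at 1522 ± 259.5 CPM per kb (SD, n = 4) in early WT MEFs of the S6K1 set, and these chains overlapped in their spread. *Col3a1*, the chain of type III collagen, followed at 439 ± 109 CPM per kb, then *Col5a2* at 284 ± 62.2 and *Col5a1* at 161 ± 13.7 CPM per kb (SD, n = 4 each), the type V chains that are incorporated into type I fibrils. *Col8a1*, *Col6a1* and *Col4a1* came next at 112 ± 41.2, 106 ± 30.2 and 97.9 ± 18.0 CPM per kb, and their spreads overlapped. In the early WT MEFs of the S6K1/S6K2 set *Col1a1* stood at 1671 ± 317 and *Col1a2* at 1582 ± 234 CPM per kb (SD, n = 4), again without separation. *Col1a2* and *Col1a1* stood at 967 ± 222 and 834 ± 233 CPM per kb in late WT of the S6K1 set (SD, n = 4) and at 793 ± 55.2 and 662 ± 170.3 in KO (SD, n = 3), and overlapped in both. All libraries had *Col1a2* above *Col1a1* in late WT of the S6K1/S6K2 set (835 ± 37.9 and 621 ± 109.5, SD, n = 4) and in DKO (982 ± 26.6 and 703 ± 146, SD, n = 3), without overlap.

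At the low end, 8 of the 44 genes reached 10 counts in 3 libraries in neither set and were not tested. They were *Col13a1* (0 to 2 counts per library), *Col17a1* (0 to 10), *Col22a1* (0 to 13), *Col26a1* (0 to 7), *Col4a3* (0 to 10), *Col6a4* (0 to 12), *Col6a5* (0 to 9) and *Col6a6* (0 to 14). With that filter 35 genes were tested in the S6K1 set and 32 in the S6K1/S6K2 set, and 31 were tested in both. In the S6K1 set the genes just inside the filter included *Col9a1* (0 to 14 counts) and *Col9a3* (1 to 19 counts), which passed through early WT libraries alone. *Col20a1* (0 to 11 counts in that set) lay just outside.

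The 44 genes together took between 1.19% and 3.99% of a library's counts, and *Col1a1* and *Col1a2* carried 41.4% to 72.4% of those. In the S6K1 set, collagen counts made up 2.67%, 3.19%, 2.91% and 2.76% of the 4 early WT libraries, 1.19%, 1.89%, 2.32% and 1.77% of the 4 late WT libraries, and 1.85%, 1.64% and 1.21% of the 3 KO libraries. Every late WT library lay below every early WT library, and KO libraries lay within the range of late WT. In the S6K1/S6K2 set the shares were 3.80%, 3.99%, 3.00% and 2.57% in early WT, 1.995%, 1.496%, 1.32% and 1.80% in late WT, and 1.97%, 1.71% and 2.55% in DKO. Early and late WT again did not overlap, whereas 2 of the 3 DKO libraries lay within the late WT range. These shares are a description of the summed counts and were not tested.

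**Figure D1:**
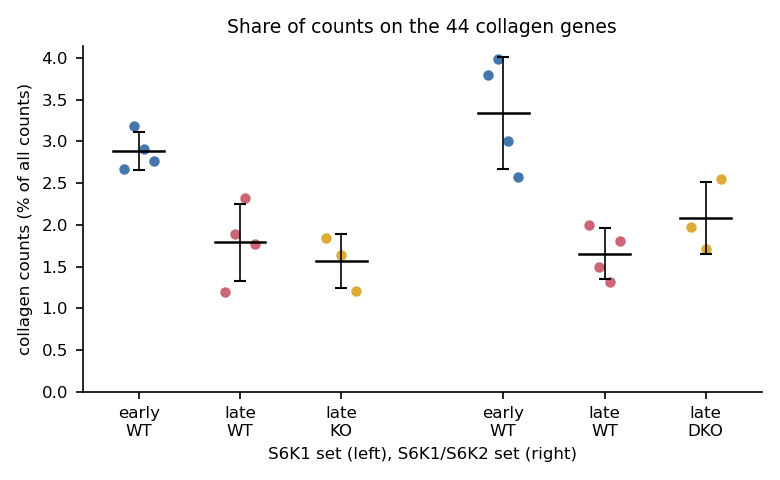
Share of each library's counts on the 44 collagen genes, in % of all counts, by group. Points are libraries, bars are the mean ± SD (n = 4, or n = 3 for KO and DKO). In both sets every late WT library lies below every early WT library, from 2.67% or more to 2.32% or less in the S6K1 set.

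The sequences before some of the genes named in these results are shown so that their composition can be read beside the levels. RefSeq windows of 250 bases before a transcript start (GRCm38.p6) were found for 35 of the 44 genes, and 6 of them are printed 5′ to 3′ on the gene's own strand. *Col1a1* was not among the 35, and the window of *Col27a1* is not printed. Bases inside the gene as RefSeq bounds it were left off, which shortened the windows of *Col5a1* and *Col5a3* to 206 and 200 bases. Capitals mark 3 short motifs wherever their letters occurred on either strand. The first was CCAAT, known as the CCAAT box. The next was GGGCGG, known as the GC box. The last was TATAAA, known as the TATA box.
*Col1a2*, chr6:4505368-4505617, plus strand: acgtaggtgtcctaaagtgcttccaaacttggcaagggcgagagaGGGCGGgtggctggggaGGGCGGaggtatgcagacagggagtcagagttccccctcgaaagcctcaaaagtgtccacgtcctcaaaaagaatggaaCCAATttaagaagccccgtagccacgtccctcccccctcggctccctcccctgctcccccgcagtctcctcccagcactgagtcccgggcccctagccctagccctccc
*Col3a1*, chr1:45311288-45311537, plus strand: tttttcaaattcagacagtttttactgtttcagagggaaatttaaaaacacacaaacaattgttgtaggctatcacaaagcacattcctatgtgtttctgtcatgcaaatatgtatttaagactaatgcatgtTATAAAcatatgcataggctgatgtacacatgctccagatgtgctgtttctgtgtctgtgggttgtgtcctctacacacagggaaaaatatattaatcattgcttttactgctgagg
*Col5a1*, chr2:27886175-27886380, plus strand: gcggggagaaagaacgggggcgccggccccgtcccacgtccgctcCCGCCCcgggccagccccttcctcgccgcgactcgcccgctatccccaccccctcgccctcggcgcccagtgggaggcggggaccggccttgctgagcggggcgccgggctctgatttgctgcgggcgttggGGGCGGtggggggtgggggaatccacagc
*Col5a3*, chr9:20815118-20815317, minus strand: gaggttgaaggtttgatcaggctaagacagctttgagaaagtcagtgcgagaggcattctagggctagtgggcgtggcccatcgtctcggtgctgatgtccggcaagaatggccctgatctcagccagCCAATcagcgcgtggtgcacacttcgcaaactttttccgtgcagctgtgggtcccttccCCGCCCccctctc
*Col6a1*, chr10:76726045-76726294, minus strand: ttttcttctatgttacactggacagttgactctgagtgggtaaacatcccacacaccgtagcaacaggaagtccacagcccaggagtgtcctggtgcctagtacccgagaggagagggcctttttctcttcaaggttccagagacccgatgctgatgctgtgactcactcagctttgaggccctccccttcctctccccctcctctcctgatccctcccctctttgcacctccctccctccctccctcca
*Col6a2*, chr10:76623631-76623880, minus strand: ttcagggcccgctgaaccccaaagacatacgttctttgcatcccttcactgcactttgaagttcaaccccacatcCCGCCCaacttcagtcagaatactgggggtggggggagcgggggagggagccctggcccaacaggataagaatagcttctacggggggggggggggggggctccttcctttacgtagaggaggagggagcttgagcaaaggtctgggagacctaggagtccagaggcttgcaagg

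The window of *Col1a2* held GGGCGG at 2 places and CCAAT at 1, whereas that of *Col3a1* held neither and had TATAAA at 117 bases before the gene start. G and C made up 77.7% of the *Col5a1* window and 35.2% of the *Col3a1* window. Neither the *Col6a1* nor the *Col6a2* window held CCAAT, and *Col6a2* held GGGCGG once. Over all 32851 windows in the table, on either strand, 33.8% held CCAAT, 32.7% held GGGCGG and 12.4% held TATAAA. The 38 windows of collagen genes held them in 34.2%, 57.9% and 13.2%. These matches describe letters only, and no binding was measured.

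Both type I chains fell between passage 3 and passage 8 in both MEF sets. *Col9a1* and *Col9a3*, which passed the filter on low counts through early WT alone, were set aside from the counts of the S6K1 set, as that choice favours a fall. Of the other 33 collagen genes 5 fell (15.2%) and none rose, beside 12.8% of all 14288 genes that passed, 5.84% that fell and 6.97% that rose. Of 32 tested in the S6K1/S6K2 set 6 fell (18.8%) and none rose. Of all 14400 genes there 13.3% passed, 5.84% fell and 7.47% rose. The median log2 fold change of these collagen genes was −0.56 in the S6K1 set and −0.42 in the S6K1/S6K2 set, against −0.03 and −0.02 over all genes. At the level of libraries, all late WT libraries lay below all early WT libraries for 5 of the 33 collagen genes in the S6K1 set and 7 of 32 in the S6K1/S6K2 set, beside 9.11% and 10% of all genes. All late libraries lay above all early ones for no collagen gene, beside 9.17% and 10.3% of all genes. The genes that fell in both sets were *Col1a1* and *Col1a2*, which were also the 2 genes whose groups were apart in both.

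*Col1a1* encodes the chain that is present in 2 copies in each type I molecule. Its levels in the S6K1 set were 7002, 9935, 8707 and 10467 CPM in early WT and at 3168, 5134, 6540.2 and 4938 CPM in late WT libraries. Its levels in the S6K1/S6K2 set were 9981, 12179, 9911 and 7571 CPM in early WT and at 4089, 3506, 2845 and 4289 CPM in late WT libraries. No late library reached the lowest early library of its set. The log2 fold change was −0.87 ± 0.26 (SE, edgeR adjusted p = 0.0441) in the S6K1 set and −1.43 ± 0.21 (SE, edgeR adjusted p = 0.00172) in the S6K1/S6K2 set, which correspond to 1.83-fold and 2.69-fold lower levels.

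*Col1a2* encodes the other type I chain. It stood at 7055, 14429, 7684 and 12491 CPM in early WT and at 3452, 6147, 5649 and 5444 CPM in late WT libraries of the S6K1 set. Its levels in the S6K1/S6K2 set were 8938, 9762, 8330.2 and 6797 CPM in early WT and at 4763, 4317, 4366 and 4417 CPM in late WT libraries. Again early and late libraries did not overlap, and the late WT libraries of the S6K1/S6K2 set lay close together (4466 ± 202 CPM, SD, n = 4). *Col1a2* fell by 1.01 ± 0.27 on the log2 scale (SE, edgeR adjusted p = 0.0301) and by 0.92 ± 0.15 (SE, edgeR adjusted p = 0.00333) in the respective sets. The ratio of *Col1a1* to *Col1a2* CPM ranged from 0.612 to 1.25 over the 22 libraries, a 2.04-fold range, while each gene alone spanned more than 4-fold.

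In the S6K1 set these calls depended on single libraries: that of *Col1a1* was lost in 9 of the 11 fits that left out 1 library, all but those without early WT replicate 1 or late WT replicate 3, and that of *Col1a2* in 5, those without early WT replicate 2 or 4 or late WT replicate 1, 3 or 4. Both calls of the S6K1/S6K2 set held in all 11. All 14 macrophage markers rose in late WT of the S6K1 set and 13 of 14 in the S6K1/S6K2 set, with median log2 fold changes of 3.05 and 2.44. The fibroblast markers summed to 10715 to 12407 CPM in early and 11716 to 12618 CPM in late WT of the S6K1 set, where *Twist1* and *Prrx1* fell among the 10. In the S6K1/S6K2 set they summed to 12219 to 13975 CPM and 10093 to 15306 CPM, and none of the 10 passed the test. Estimates were lower for 6 of the 10 in the S6K1 set (median −0.01) and for 8 in the S6K1/S6K2 set (median −0.37). The part of either marker list in the collagen values was not tested.

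**Figure D2:**
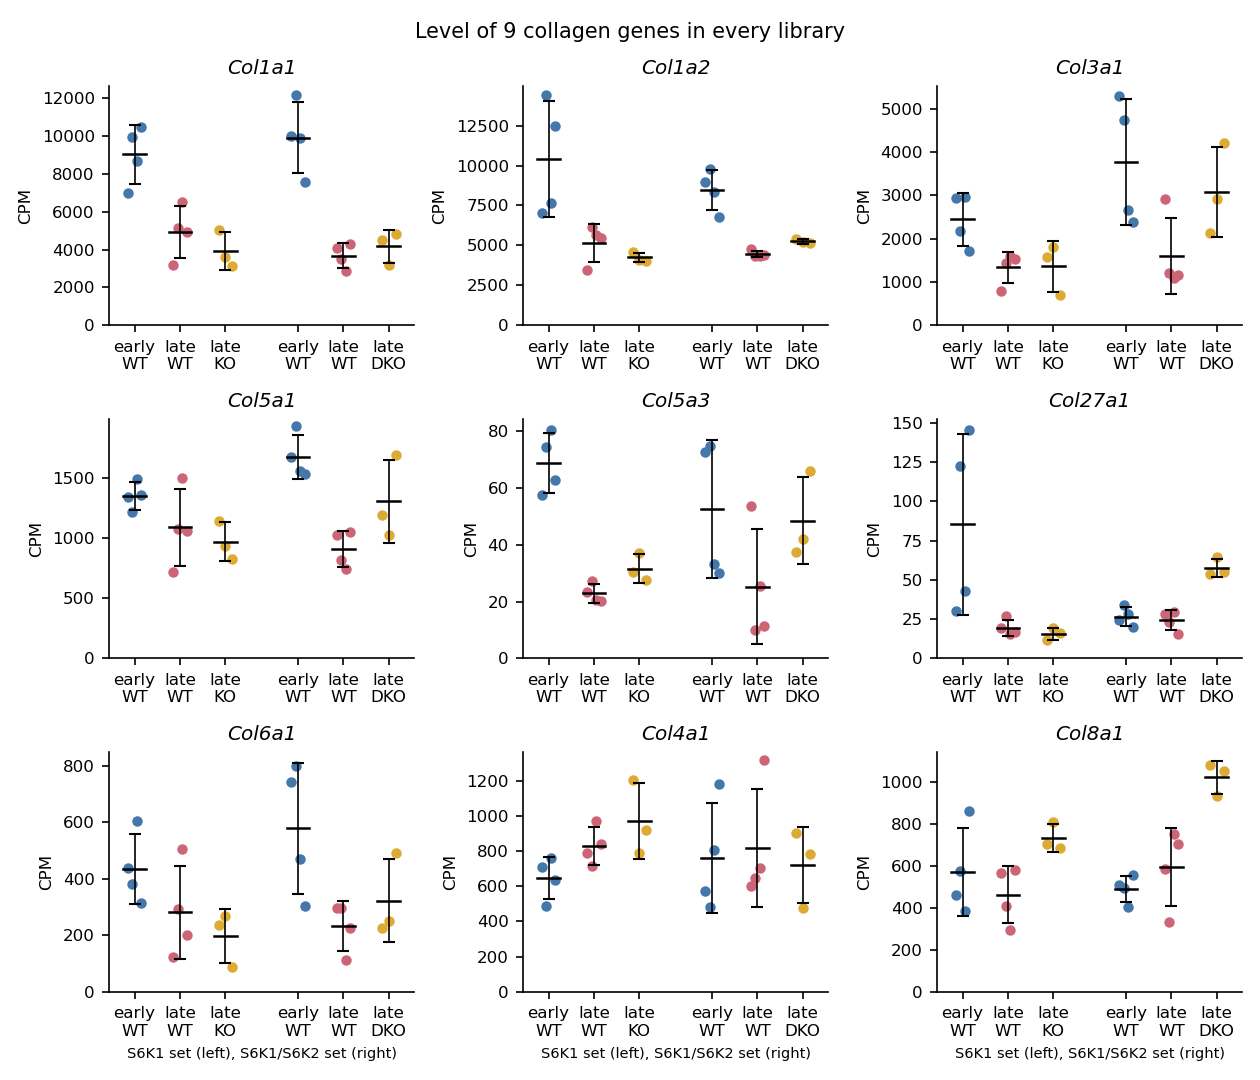
CPM of 9 collagen genes in every library, with the mean ± SD of each group (n = 4, or n = 3 for KO and DKO), S6K1 set on the left and S6K1/S6K2 set on the right of each panel. *Col1a1* and *Col1a2* are lower in every late WT library than in any early WT library of the same set, while early and late WT libraries overlap for *Col4a1* in both sets.

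Other fibrillar chains differed in how far each set showed the fall. *Col3a1* (chr1:45311538-45349706) had late WT libraries at 799.5, 1427, 1587 and 1526 CPM against 2929, 2172, 2958 and 1716 CPM in early WT of the S6K1 set. The late WT libraries of the S6K1/S6K2 set were at 2916, 1199, 1094 and 1168 CPM against 5293, 4731, 2669 and 2374 CPM. Groups were apart in the first set and overlapped in the second through late WT replicate 1. The log2 fold changes were −0.87 ± 0.32 and −1.24 ± 0.38 (SE), and neither passed the test (edgeR adjusted p = 0.0921 and 0.0516). *Col5a2* (chr1:45374331-45503282), whose gene lies 24624 bases from *Col3a1*, had log2 fold changes of −0.32 ± 0.21 and −0.64 ± 0.22 (SE, edgeR adjusted p = 0.351 and 0.0772). The ratio of *Col3a1* to *Col5a2* CPM spanned 3.12-fold over the 22 libraries, so the neighbours did not keep 1 proportion.

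*Col5a1*, the other main type V chain, fell in the S6K1/S6K2 set. There it stood at 1677, 1931, 1559.6 and 1535 CPM in early WT and at 1032, 822, 745 and 1051 CPM in late WT libraries, which did not overlap. The log2 fold change was −0.88 ± 0.18 (SE, edgeR adjusted p = 0.0092), and the call held in all 11 fits without 1 library. In the S6K1 set *Col5a1* stood at 1344, 1217, 1498 and 1361 CPM in early WT and at 721, 1076, 1505 and 1061 CPM in late WT libraries. These groups overlapped, with a log2 fold change of −0.31 ± 0.21 (SE, edgeR adjusted p = 0.37).

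*Col5a3*, a minor type V chain, had the lowest adjusted p of all collagen genes. It stood at 57.7, 74.3, 80.5 and 62.9 CPM in early WT and at 23.5, 27.2, 20.7 and 20.2 CPM in late WT libraries of the S6K1 set. The groups were far apart, and *Col5a3* fell 3.01-fold (log2 fold change −1.59 ± 0.16, SE, edgeR adjusted p = 7.37e-05). Its early WT libraries of the S6K1/S6K2 set stood at 72.8, 74.7, 33.3 and 30.2 CPM and its late WT libraries at 53.7, 10.1, 25.6 and 11.5 CPM. Here 1 late library, replicate 1, lay above 2 early ones, and the log2 fold change of −1.06 ± 0.51 (SE) did not pass (edgeR adjusted p = 0.184). The difference between the sets was 0.52 ± 0.55 (SE, edgeR adjusted p = 0.793).

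*Col27a1*, a fibrillar chain best known from developing cartilage, fell in the S6K1 set. It stood at 30.2, 123, 42.8 and 145 CPM in early WT and at 19.2, 27.0, 15.7 and 16.6 CPM in late WT libraries. No late library reached an early one, but replicates 2 and 4 of early WT were far above the other two. The log2 fold change was −2.12 ± 0.44 (SE, edgeR adjusted p = 0.00851). In the S6K1/S6K2 set *Col27a1* stood at 24.2, 33.8, 28.5 and 20.2 CPM in early WT and at 28.2, 23.3, 29.7 and 15.8 CPM in late WT libraries, a log2 fold change of −0.14 ± 0.20 (SE, edgeR adjusted p = 0.675). The difference between the sets was 1.98 ± 0.51 on the log2 scale (SE) and did not pass (edgeR adjusted p = 0.102). Among 9 chondrocyte markers, 6 were tested in the S6K1 set, all 6 had lower estimates in late WT and 1 fell, with a median of −1.57. The S6K1/S6K2 set had lower estimates for 5 of 6 (median −1.20), and none passed. The 9 chondrocyte markers summed to 27.7, 56.9, 33.3 and 69.7 CPM in early WT of the S6K1 set. In late WT they summed to 22.1, 39.2, 28.1 and 45.2 CPM, which overlapped. In the S6K1/S6K2 set their sums overlapped too, at 18.3 to 32.7 and 19.9 to 30.7 CPM. Osteoblast markers summed to 44.5, 79.2, 47.7 and 80.5 CPM in early WT and to 25.1, 24.7, 21.8 and 26.2 CPM in late WT libraries of the S6K1 set, with replicates 2 and 4 of early WT again the highest, and 1 of 3 tested fell. The corresponding ranges in the S6K1/S6K2 set were 29.6 to 39.0 and 25.7 to 33.1 CPM, and none of 3 passed. The part of either list in the *Col27a1* values was not tested.

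*Col11a1*, a chain that nucleates thin fibrils, fell in the S6K1 set from 289.7, 267, 197 and 382 CPM to 102, 166, 119.7 and 218 CPM (log2 fold change −0.91 ± 0.27, SE, edgeR adjusted p = 0.043). The highest late library lay above the lowest early one, and the call was lost in 8 of 11 fits, all but those without early WT replicate 3, late WT replicate 4 or KO replicate 1. Its log2 fold change in the S6K1/S6K2 set was −0.81 ± 0.32 (SE, edgeR adjusted p = 0.11). Of the 11 fibrillar genes, 5 fell in the S6K1 set and 3 in the S6K1/S6K2 set, with medians of −0.87 and −0.81.

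The 3 measured chains of type VI collagen fell in the S6K1/S6K2 set. *Col6a1* stood at 742, 800.1, 469 and 304 CPM in early WT and at 297, 296, 112 and 225 CPM in late WT libraries. *Col6a2* stood at 509, 589.6, 361 and 212 CPM and at 208, 201, 72.5 and 131 CPM, and *Col6a3* at 252, 269, 163 and 70.9 CPM and at 99.2, 72.0, 34.9 and 25.8 CPM. For *Col6a1* and *Col6a2* the groups were just apart, whereas *Col6a3* overlapped. The log2 fold changes were −1.32 ± 0.39, −1.45 ± 0.40 and −1.70 ± 0.51 (SE, edgeR adjusted p = 0.0462, 0.0371 and 0.0488). All 3 calls were lost when early WT replicate 1 or 2, or late WT replicate 2, 3 or 4, was left out. The calls of *Col6a1*, *Col6a2* and *Col6a3* were lost in 7, 5 and 8 of the 11 fits without 1 library. Among 8 other settings of the analysis they were lost in 4, 2 and 3. The same genes had, in the S6K1 set, log2 fold changes of −0.63 ± 0.42, −0.59 ± 0.44 and −0.56 ± 0.40 (SE, edgeR adjusted p = 0.367, 0.419 and 0.397).

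*Col6a1* (chr10:76708792-76726044) and *Col6a2* (chr10:76595756-76623630) lie 85161 bases apart on the minus strand and kept a nearly constant proportion. *Col6a1* spanned 86.9 to 800.1 CPM, a 9.21-fold range over the 22 libraries, while its ratio to *Col6a2* spanned a 1.35-fold range, up to 1.72. *Col6a3*, on chromosome 1, spanned a 13.0-fold range, and the ratio of *Col6a1* to *Col6a3* ranged from 0.932 to 8.73. These ratios describe 22 libraries whose genes share the same depth and scaling, and they carry no test.

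**Figure D3:**
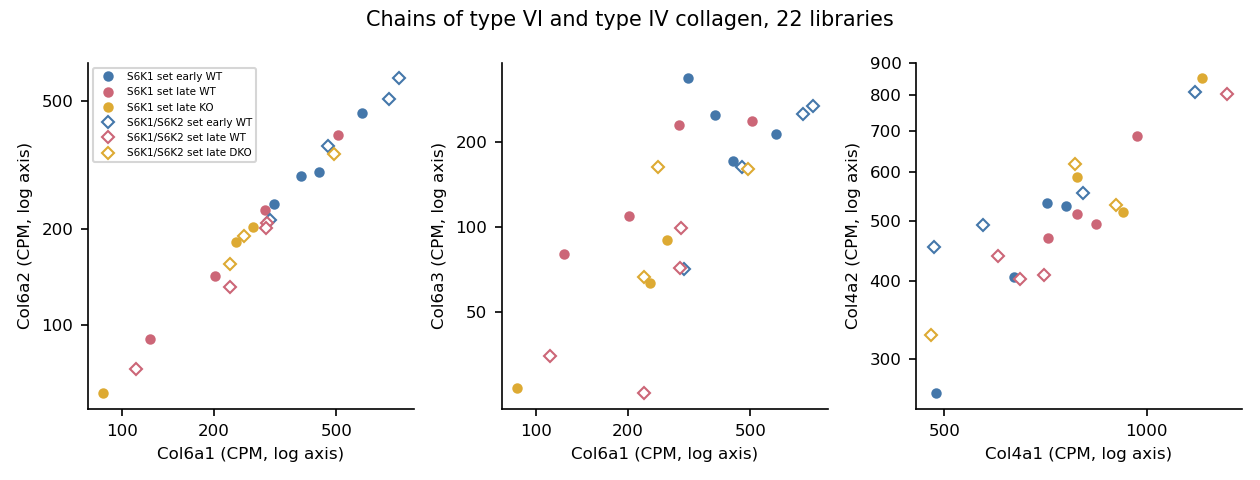
CPM of *Col6a1* against *Col6a2*, *Col6a1* against *Col6a3* and *Col4a1* against *Col4a2* in the 22 libraries, on log axes, with colour and shape for the 6 groups. Libraries fall on a narrow band for *Col6a1* and *Col6a2* (ratios within a 1.35-fold range) and scatter for *Col6a1* and *Col6a3* (ratios of 0.932 to 8.73).

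Basement membrane collagen did not pass the test in either passage comparison. *Col4a1* stood at 711, 485, 758 and 635 CPM in early WT and at 788, 714, 968 and 840.3 CPM in late WT of the S6K1 set. The S6K1/S6K2 set had it at 571, 483, 803 and 1180.1 CPM and at 599.8, 648, 702 and 1317 CPM. The groups overlapped in both, with log2 fold changes of 0.35 ± 0.19 and 0.11 ± 0.33 (SE, edgeR adjusted p = 0.255 and 0.861). *Col4a2*, its partner in the common type IV trimer, had 0.32 ± 0.24 and −0.17 ± 0.27 (SE, edgeR adjusted p = 0.43 and 0.712). The 2 genes overlap head to head by 85 bases (chr8:11198423-11312889 and chr8:11312805-11449287), and the strand setting of the counting is not given in the sources used here, so reads from the overlap cannot be assigned with certainty. Their ratio ranged from 1.06 to 1.84. *Col4a5* stood at 20.2 to 89.5 CPM and *Col4a6*, its neighbour on the X chromosome, at 0 to 2.76 CPM. *Col4a3* and *Col4a4*, which overlap on chromosome 1, stayed under 16 counts in every library, at 0 to 10 and 0 to 15.

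Among the remaining classes, *Col9a1* was the one gene that passed. It had 13, 11, 14 and 1 counts in early WT and 0, 1, 2 and 0 counts in late WT libraries of the S6K1 set (edgeR adjusted p = 0.0401). Because it passed the filter on low counts through early WT libraries alone, a difference was built into its selection, and no fold change is given. The call was lost in 6 of the 8 fits without 1 library in which the gene could be tested, all but those without early WT replicate 4 or KO replicate 3. *Col7a1*, the anchoring fibril collagen, and *Col18a1*, the source of endostatin, had late WT libraries entirely below early WT in the S6K1/S6K2 set but did not pass (log2 fold changes −0.87 ± 0.34 and −1.67 ± 0.54, SE, edgeR adjusted p = 0.114 and 0.0622). *Col12a1*, a FACIT collagen, had −0.08 ± 0.35 and −0.45 ± 0.27 (SE) in the S6K1 and S6K1/S6K2 sets (edgeR adjusted p = 0.908 and 0.266). *Col10a1*, a short-chain collagen of hypertrophic cartilage, was singled out after its values were seen for its spread: its 4 late WT libraries of the S6K1/S6K2 set stood at 111, 6.22, 57.4 and 12.8 CPM, a 17.9-fold range.

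**Figure D4:**
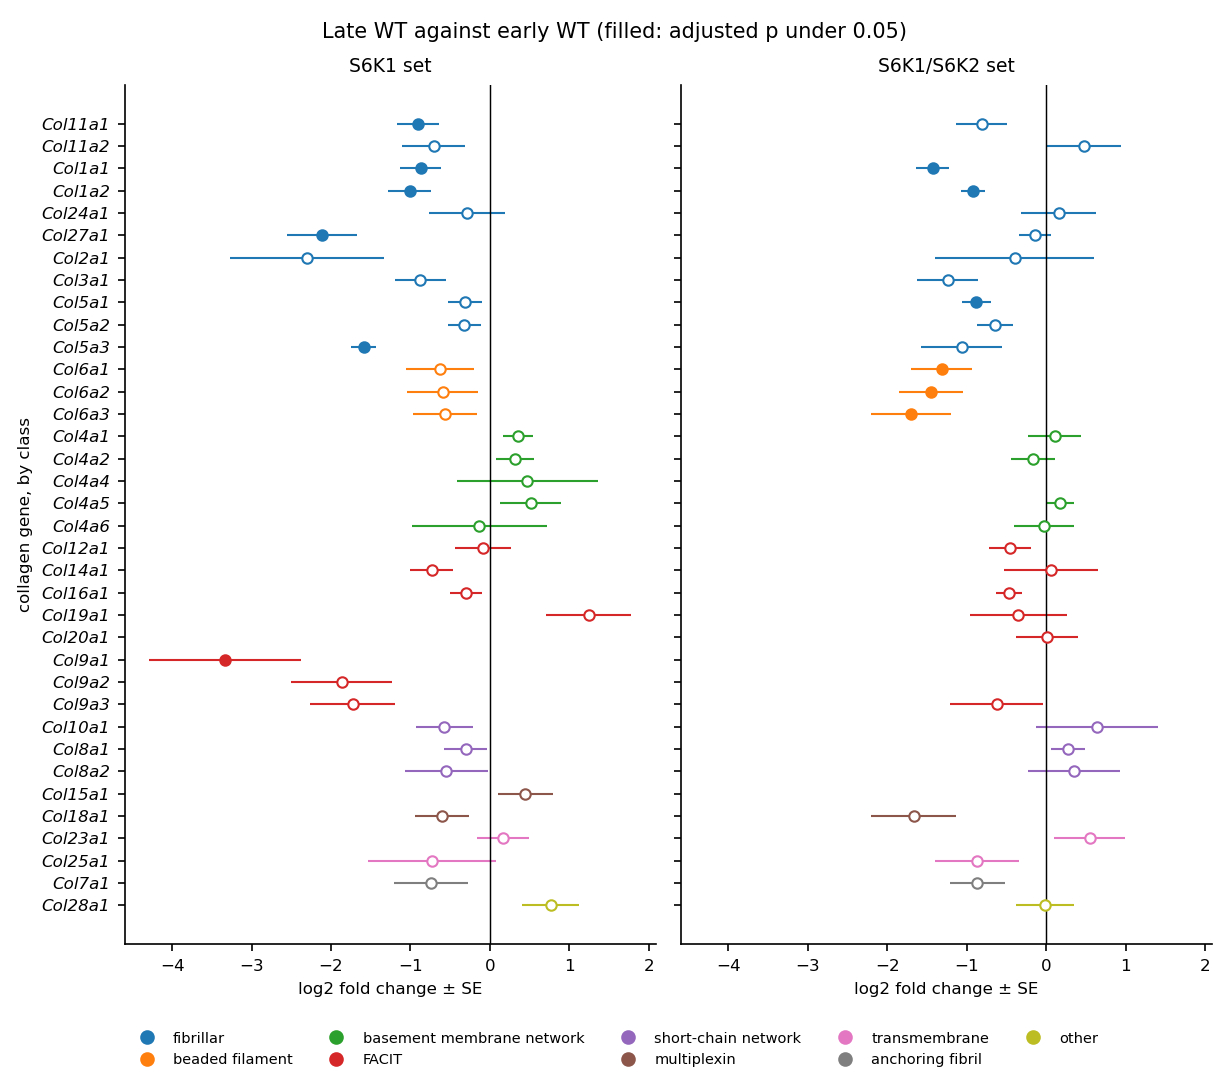
Log2 fold change (late WT against early WT) ± SE of each tested collagen gene in the S6K1 set (35 genes) and the S6K1/S6K2 set (32 genes), coloured by class, with filled points for an edgeR adjusted p under 0.05. Filled points are all to the left of 0, 6 in each panel, and no type IV chain is filled. The point of *Col9a1* rests on at most 14 counts per library and is no measure of size.

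The test of the difference between the 2 passage effects called no collagen gene of 36 tested, beside 0.714% of 14991 genes, and 1 collagen gene had an unadjusted p under 0.05, beside 9.53% of all genes. DESeq2 called *Col27a1*. An early-to-late fall that passed in 1 set alone is therefore not shown to differ from that of the other set.

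Loss of S6K1 left no collagen gene past the threshold in late cells. Of 35 genes tested 0 passed, beside 0.042% of all 14288 genes, and 6 had an unadjusted p under 0.05, beside 10.6% of all genes. The median log2 fold change was −0.17, against −0.01 over all genes. All 3 KO libraries carried Y-linked transcripts against 1 of 4 late WT libraries, so that sex differs in part with genotype here. With the Y-linked level as a covariate 1 gene passed, *Col8a1*, a short-chain collagen of vessels and cornea. It stood at 705, 809 and 686 CPM in KO and at 565, 409, 295 and 581 CPM in late WT libraries, with a log2 fold change of 0.67 ± 0.29 (SE, edgeR adjusted p = 0.446) without the covariate. The 14 macrophage markers all had lower estimates in KO (median −0.94), and none passed. The 10 fibroblast markers summed to 15201 to 16582 CPM in KO and to 11716 to 12618 CPM in late WT libraries, without overlap, and none passed singly. Of these 10, however, 6 had lower and 4 higher estimates in KO, with a median log2 fold change of −0.08. The part of either list in the KO values was not tested.

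*Col6a3* and *Col7a1* had the lowest p-values of the collagen genes in KO cells, and DESeq2 called both. *Col6a3* stood at 63.4, 90.0 and 26.9 CPM in KO and at 80.6, 229.9, 238 and 109 CPM in late WT libraries, which overlapped (log2 fold change −1.45 ± 0.45, SE, edgeR adjusted p = 0.301). *Col7a1* stood at 12.3, 7.62 and 27.3 CPM against 15.3, 66.7, 85.9 and 37.4 CPM (log2 fold change −1.71 ± 0.54, SE, edgeR adjusted p = 0.304). The other type VI chains had −0.51 ± 0.46 for *Col6a1* and −0.52 ± 0.48 for *Col6a2* (SE, edgeR adjusted p = 0.744 and 0.749).

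The abundant fibrillar chains did not pass the test in KO cells. *Col1a1* stood at 5053, 3612 and 3106 CPM and *Col1a2* at 4581, 4098 and 4046 CPM, within or near the late WT ranges. Their log2 fold changes were −0.33 ± 0.28 and −0.29 ± 0.29 (SE, edgeR adjusted p = 0.725 and 0.773). *Col3a1* had 0.02 ± 0.34, *Col5a1* −0.17 ± 0.23 and *Col5a2* 0.18 ± 0.22 (SE, edgeR adjusted p = 0.989, 0.839 and 0.826). *Col4a1* and *Col4a2* had 0.23 ± 0.21 and 0.27 ± 0.26 (SE, edgeR adjusted p = 0.741 and 0.763). *Col5a3* and *Col8a1* were the 2 genes of 35 with every KO library above every late WT library, beside 6.99% of all genes, and *Col5a3* had a log2 fold change of 0.47 ± 0.17 (SE, edgeR adjusted p = 0.354).

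Loss of both kinases came with higher *Col27a1* and *Col28a1* in late cells. Of 32 collagen genes tested 2 rose and none fell, beside 4.44% of all 14400 genes that passed, 0.819% that rose and 3.62% that fell. The median log2 fold change was 0.45, against 0.01 over all genes. Y-linked transcripts marked 1 of 3 DKO and 3 of 4 late WT libraries, so that sex differs in part with genotype here too. *Col27a1* stood at 53.9, 64.3 and 55.0 CPM in DKO libraries, above the 15.8 to 29.7 CPM of late WT, and rose 2.38-fold (log2 fold change 1.25 ± 0.21, SE, edgeR adjusted p = 0.00888). *Col28a1*, a collagen related to type VI and found around glia of peripheral nerve, stood at 6.25, 13.4 and 8.90 CPM in DKO and at 2.78, 3.94, 2.06 and 4.15 CPM in late WT libraries (log2 fold change 1.55 ± 0.38, SE, edgeR adjusted p = 0.0409). Neither gene's groups overlapped. All 6 chondrocyte markers tested (median log2 fold change 0.76) and all 3 osteoblast markers (median 0.46) had higher estimates in DKO, and none passed. Their part in the DKO values of *Col27a1* was not tested. The *Col27a1* call was lost without DKO replicate 2 and in the fit of all 6 groups, and the *Col28a1* call was lost in 8 of the 11 fits without 1 library and with the Y-linked covariate.

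The 3 short-chain genes, named after their values were seen, had higher estimates in DKO cells, and none passed. *Col8a1* stood at 1079, 933 and 1051 CPM in DKO and at 587, 334, 750.2 and 702 CPM in late WT libraries, with no overlap (log2 fold change 0.78 ± 0.23, SE, edgeR adjusted p = 0.0788). *Col8a2* stood at 11.8, 31.5 and 51.7 CPM against 13.4, 8.23, 3.09 and 3.39 CPM, which overlapped (log2 fold change 2.17 ± 0.61, SE, edgeR adjusted p = 0.0745). DESeq2 called both genes. *Col10a1* stood at 150.5, 57.2 and 256 CPM against 111, 6.22, 57.4 and 12.8 CPM, which overlapped. Its log2 fold change of 1.72 ± 0.81 (SE) did not pass (edgeR adjusted p = 0.296).

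*Col3a1* and the other abundant chains did not pass in DKO cells. *Col3a1* stood at 2129, 2917 and 4197 CPM, which overlapped with late WT only through late WT replicate 1 (log2 fold change 0.95 ± 0.40, SE, edgeR adjusted p = 0.23). *Col1a2* stood at 5413, 5206 and 5140.5 CPM, above all 4 late WT libraries, with a log2 fold change of 0.23 ± 0.17 (SE, edgeR adjusted p = 0.501). *Col1a1* had 0.18 ± 0.22, *Col5a1* 0.52 ± 0.19 and *Col5a2* 0.26 ± 0.24 (SE, edgeR adjusted p = 0.738, 0.17 and 0.63). *Col6a1*, *Col6a2* and *Col6a3* had 0.47 ± 0.41, 0.58 ± 0.42 and 1.17 ± 0.53 (SE, edgeR adjusted p = 0.602, 0.517 and 0.271), and *Col4a1* and *Col4a2* had −0.18 ± 0.36 and −0.06 ± 0.30 (SE, edgeR adjusted p = 0.845 and 0.944). In all, 4 of 32 genes had every DKO library above every late WT library, beside 6.35% of all genes. Among the macrophage markers 11 of 14 fell in DKO cells (median log2 fold change −2.42), and *Pdgfrb* rose among the 10 fibroblast markers. Of these 10, 7 had higher estimates in DKO, with a median of 0.32. The part of either list in the DKO collagen values was not tested.

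Late WT replicate 1 of the S6K1/S6K2 set had the highest *Col3a1*, *Col5a2* and *Col5a3* of its group and stood apart in *Col3a1*. Replicate 4 had the highest *Col1a1*, *Col5a1* and *Col11a1*. The macrophage markers of replicate 1 summed to 8238 CPM, within the 6724 to 11587 CPM of the group. Their part in these values was not tested. When replicate 1 was left out, 11 collagen genes fell with passage in place of 6. In DKO 4 rose in place of 2, namely *Col3a1*, *Col8a2*, *Col18a1* and *Col27a1*. This library was singled out for its high values, and both comparisons share its group. For genes in which it is highest, a larger fall and a larger rise without it were built into that choice.

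**Figure D5:**
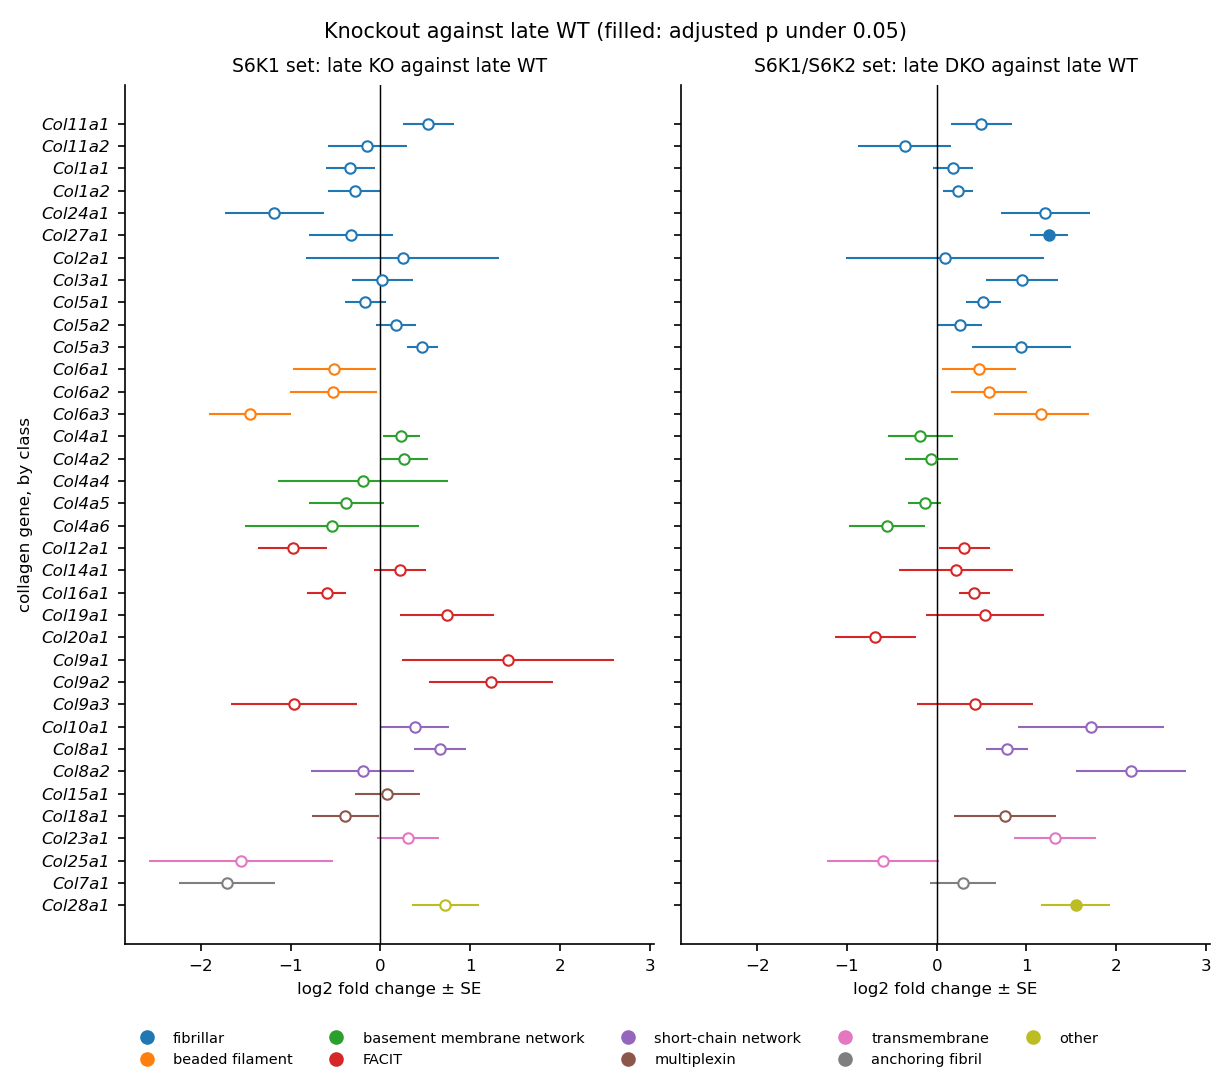
Log2 fold change ± SE of each tested collagen gene for late KO against late WT (S6K1 set) and late DKO against late WT (S6K1/S6K2 set), coloured by class, with filled points for an edgeR adjusted p under 0.05. No point is filled for KO, and *Col27a1* and *Col28a1* are filled, to the right of 0, for DKO.

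The difference between the DKO and KO effects called no collagen gene of 36 tested, beside 0.00667% of all genes, and 9 had an unadjusted p under 0.05, beside 10.9% of all genes. The difference was 2.62 ± 0.74 for *Col6a3* and 0.93 ± 0.56 for *Col3a1* (SE, edgeR adjusted p = 0.286 and 0.57), and DESeq2 called *Col6a3*. The KO and DKO comparisons come from separate sets with their own late WT libraries, while each knockout comparison shares its late WT libraries with the passage comparison of the same set. In *Col27a1* the values side by side were −2.12 ± 0.44 for passage and −0.33 ± 0.47 for KO in the S6K1 set, and −0.14 ± 0.20 for passage and 1.25 ± 0.21 for DKO in the S6K1/S6K2 set (log2 fold change ± SE).

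Most genes for collagen folding, cross-linking and binding did not pass the passage test, and those that did included 2 folding genes that fell in both sets, *Plod1* and *Fkbp10*. Of 57 genes in 5 collagen-pathway lists, 54 were tested in the S6K1 set, where 4 rose and 4 fell, and 52 in the S6K1/S6K2 set, where 3 rose and 7 fell. These are 14.8% and 19.2% of the pathway genes tested, beside 12.8% and 13.3% of all genes. In the list for hydroxylation and folding, 1 rose and 3 fell of 19 tested in the S6K1 set (median −0.05), and 1 rose and 5 fell of 19 in the S6K1/S6K2 set (median −0.33). *Plod1*, a lysyl hydroxylase, stood at 111 to 174 CPM in early WT and 49.1 to 94.8 CPM in late WT of the S6K1 set, and at 145 to 191 and 76.2 to 98.4 CPM in the S6K1/S6K2 set. It fell by 0.75 ± 0.22 and 0.95 ± 0.13 on the log2 scale (SE, edgeR adjusted p = 0.0464 and 0.00114). *Fkbp10*, a chaperone of procollagen, fell by 0.68 ± 0.14 and 0.75 ± 0.13 (SE, edgeR adjusted p = 0.00652 and 0.0042). Early and late libraries of each set did not overlap for either gene.

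*Plod2*, the lysyl hydroxylase of the chain ends, fell in the S6K1 set from 104 to 191 CPM in early WT to 52.2 to 92.0 CPM in late WT (log2 fold change −0.98 ± 0.22, SE, edgeR adjusted p = 0.0115). Its value in the S6K1/S6K2 set was −0.42 ± 0.34 (SE, edgeR adjusted p = 0.439). *P4ha2*, a prolyl 4-hydroxylase subunit, fell in the S6K1/S6K2 set by 0.72 ± 0.16 (SE, edgeR adjusted p = 0.0143). *Serpinh1*, the collagen chaperone HSP47, also passed there but not in the S6K1 set, with log2 fold changes of −0.48 ± 0.12 and −0.32 ± 0.15 (SE, edgeR adjusted p = 0.0196 and 0.204). *P4ha1* had −0.29 ± 0.15 and −0.15 ± 0.14 in the S6K1 and S6K1/S6K2 sets (SE, edgeR adjusted p = 0.234 and 0.512). The gene of this list that rose in both sets was *Tmem38b*, an endoplasmic reticulum cation channel, by 0.99 ± 0.14 and 0.66 ± 0.12 (SE, edgeR adjusted p = 0.000827 and 0.00416).

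Cross-linking, receptor and fibril-binding genes moved in both directions. *Loxl4*, a lysyl oxidase, fell in both sets (log2 fold changes −1.40 ± 0.33 and −1.28 ± 0.32, SE, edgeR adjusted p = 0.0156 and 0.0257), and *Loxl3* fell in the S6K1/S6K2 set by 1.36 ± 0.23 (SE, edgeR adjusted p = 0.00378). *Lox*, which stood at 1163 to 3503 CPM over the 22 libraries, had 0.33 ± 0.20 and −0.13 ± 0.20 (SE, edgeR adjusted p = 0.315 and 0.697). *Lair1*, an inhibitory collagen receptor of leukocytes, rose by 3.43 ± 0.33 and 3.43 ± 0.44 (SE, edgeR adjusted p = 4.9e-05 and 0.00109), along with the macrophage markers. *Itga1*, a collagen-binding integrin chain, rose in the S6K1 set (1.05 ± 0.17, SE, edgeR adjusted p = 0.00148), as did *Prelp*, a small leucine-rich proteoglycan (2.44 ± 0.62, SE, edgeR adjusted p = 0.023). *Tnxb*, which encodes tenascin X, rose in the S6K1/S6K2 set from 0.55 to 1.78 CPM on average (1.67 ± 0.37, SE, edgeR adjusted p = 0.0125). No gene of the propeptide processing list passed in either set.

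In KO cells none of the 54 pathway genes tested passed, beside 0.042% of all genes, and 9 had an unadjusted p under 0.05, beside 10.6% of all genes. *Plod2* stood at 126 to 151 CPM in KO against 52.2 to 92.0 CPM in late WT libraries, with no overlap (log2 fold change 0.96 ± 0.23, SE, edgeR adjusted p = 0.193), and DESeq2 called it. *Lox* had 0.67 ± 0.22, *P4ha1* 0.37 ± 0.16 and *Serpinh1* 0.13 ± 0.17 (SE, edgeR adjusted p = 0.315, 0.447 and 0.823). In DKO cells 1 rose and 1 fell of 52 tested (3.85%), beside 4.44% of all genes. *Fmod*, encoding the fibril-binding proteoglycan fibromodulin, rose (2.76 ± 0.61, SE, edgeR adjusted p = 0.0298), with overlapping libraries at 9.54 to 56.2 CPM in DKO and 2.35 to 10.4 CPM in late WT. *Lair1* fell by 2.25 ± 0.46 (SE, edgeR adjusted p = 0.021), from 11.7 to 27.3 CPM in late WT to 2.42 to 8.11 CPM in DKO libraries. *Lox*, *Plod2*, *P4ha1* and *Serpinh1* had 0.45 ± 0.21, 0.47 ± 0.37, 0.19 ± 0.15 and 0.15 ± 0.12 (SE, edgeR adjusted p = 0.284, 0.555, 0.561 and 0.58).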

How the data were processed

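The authors prepared RNA libraries from MEFs, demultiplexed reads with CASAVA and counted reads per gene. The study's text names TopHat, mm9 and HTSeq, whereas the submitters' processing notes name STAR 2.7.1a, mm10 and DESeq2 1.28.1. The strand setting and annotation release are not given in the sources used here. The deposited values are raw counts per gene, without normalization, for 55401 identifiers. Symbols were found for 32589 identifiers, which carried 97.0% of the counts. Gene positions and windows are RefSeq's for GRCm38.p6, and transcript lengths for CPM per kb are those of the coding transcript with the longest coding sequence in GENCODE vM1, found for all 44 genes.

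Genes with at least 10 counts in at least 3 libraries of the fit were tested with edgeR 4.0.16 in R 4.3.3 (quasi-likelihood F test, robust, TMM over the 22 libraries), with the 3 groups of a set in 1 fit, or all 6 groups for the 2 differences of effects. P-values were adjusted by the Benjamini-Hochberg method over all genes tested, and an adjusted p under 0.05 was called. SE is the log2 fold change divided by the root of F. The procedure was tested on simulated data. Where a prior count sets a fold change (Col9a1), none is given. The labels do not say which libraries share an embryo, so p-values measure the spread between libraries. No library was a duplicate of another in its group: counts of 2 libraries in a group differed by a chi-square of 20.6 to 265.7 per degree of freedom (30 pairs). Pairs from different groups were not compared, and these values do not show whether 2 libraries share an embryo. Precision also depends on depth: 3 counts correspond to 0.173 to 0.279 CPM.

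The 10 main fibroblast and basement membrane chains and Rps6kb1, Rps6kb2, Serpinh1, P4ha1, Plod2 and Lox were named in each of the 4 comparisons between groups, with every collagen gene past the threshold and up to 3 rises and 3 falls of each pathway list with a mean of at least 1 CPM. Col7a1, Col8a1, Col8a2, Col10a1, Col12a1 and Col18a1 were named after their values were seen. Members and lists were chosen with earlier results of these data known. Of 58 pathway genes listed, 57 were found. Alternatives were DESeq2 1.42.0, other scalings and filters, other groups in the fit, a Y-linked covariate and leaving out each library.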

Additional observations from a re-analysis of the deposited data

Results flagged for a closer look

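Groups of 4 libraries were examined for a library whose gap to its nearest neighbour, as a share of the group's range, passed Dixon's 95% limit. Of 62 groups of collagen genes 3 had one, and chance alone gives about 1 in 20 groups. All 3 were late WT libraries of the S6K1/S6K2 set. *Col3a1* stood at 2916 CPM in replicate 1, against 1094 to 1199 CPM in the other libraries. *Col4a1* stood at 1317 CPM in replicate 4, against 599.8 to 702 CPM. *Col4a2* stood at 802 CPM in the same replicate 4, against 403 to 440.0 CPM.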

How the results depend on the processing

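The number of collagen genes past the threshold for passage in the S6K1 set (6) ranged from 3 to 8 over 8 other settings. It was 3 when only the 2 groups compared were fitted, and 2 to 5 when 1 library was left out. For passage in the S6K1/S6K2 set (6) the 8 other settings called 4 to 10, the 10 with DESeq2. Leaving out 1 library gave 3 to 11, the 11 without late WT replicate 1. For KO (0) DESeq2 called 2 and the Y-linked covariate 1, and leaving out 1 library gave 0 each time. For DKO (2) DESeq2 and the fit without a filter called 4 each and the Y-linked covariate 1, and leaving out 1 library gave 0 (without DKO replicate 2) to 4 (without late WT replicate 1). DESeq2 called 1 gene in each difference of effects (0), and leaving out 1 library gave 0 to 1 for passage and 0 for genotype. Pathway genes past the threshold for passage in the S6K1 set (8) were 14 with the Y-linked covariate and 5 to 9 without 1 library. In the S6K1/S6K2 set (10) DESeq2 called 17, and leaving out 1 library gave 8 to 14. For KO (0) DESeq2 called 2. For DKO (2) DESeq2 called 9, the fit of only 2 groups 1 and the fit of all 6 groups 6, and leaving out 1 library gave 0 to 9. With the Y-linked covariate the KO log2 fold changes of Col3a1, Col4a1, Col4a2 and Col5a2 turned to −0.32, −0.040, −0.17 and −0.083. Without 1 library, KO values ranged from −0.26 to 0.32 for Col3a1 and −0.32 to 0.027 for Col5a1, passage values in the S6K1/S6K2 set from −0.22 to 0.40 for Col4a1 and −0.47 to 0.037 for Col4a2, and DKO values from −0.37 to 0.15 for Col4a1 and −0.26 to 0.24 for Col4a2. None of these had passed the test, and the cause was not tested. The collagen share kept its direction in every comparison when 1 library or the mitochondrially encoded genes were left out. Over all genes, the KO comparison called 6 genes with edgeR, 264 with DESeq2, 34 without a filter, 56 with the covariate and 16 with all 6 groups, DKO called 640 with edgeR and 1203 with DESeq2, and passage in the S6K1 set called 1830, and 3303 with the covariate. The difference in passage effects called 107 genes with edgeR and 223 with DESeq2, and that of genotype effects 1 with edgeR, 65 with DESeq2 and 3 without a filter. No paired analysis was possible because the labels give library codes and no replicate numbers shared between groups. With 3 or 4 libraries a group and at most 14 counts in genes such as Col9a1, small differences were not detectable at this depth.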
